A study of Mus musculus with 8 samples.

Results

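In mouse ES cells sorted for the endodermal reporter Venus and the surface antigen SSEA-1, 215 array features met a shared rule. They were level or higher in Venus-positive cells with SSEA-1 (V+S+) and lower in Venus-positive cells without it (V+S-). They were chosen by the authors' deposited log10 values: V+S- minus V+S+ of -0.13 or less, and V+S+ minus V-S+ above -0.10, in each of 2 clones, with a Cy3 signal well above background in both V-S+ samples. Of 25164 rows of the deposited table, 17404 passed the background condition and 219 met the whole rule. Of these, 4 rows, those of 3 solute carriers and Pou5f1, were left out because their symbols were excluded by the rule, which leaves 215 features. A symbol could be given to 49 of them, and 166 have no name here, because the naming table of the study holds only genes that it had selected as differing among these same samples, and its first 1998 rows were used. The exclusion by symbol could not be applied to these 166.

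The cells were HV ES cells (named HIV in the labels) of strain 129/Ola, feeder-free in serum, in which Venus and an artificial IRES were knocked into the first exon of the Hex gene, so that Venus reports transcription of Hex, a homeobox gene of early endoderm. Both clones, 5.1 and 16.1, carry this allele, and no line without it is among these samples. Each was plated at 200000 cells per ml, grown with LIF for 24 hours and separated by flow cytometry into fractions without Venus (V-S+ and V-S-) and with it (V+S+ and V+S-), which gives 8 samples, 1 per fraction and clone. All fractions were taken at this time, so a fall or a peak below means a difference between fractions and no order in time. Sample RNA carried Cy3 and shared its array with a Cy5-labelled pool of mouse cell line RNA, so every level below is a log2 ratio of sample to that reference, and levels of different genes are not set against each other.

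ES cells stand for the inner cell mass of the blastocyst, which sorts into epiblast and primitive endoderm. SSEA-1 is a carbohydrate antigen carried by undifferentiated mouse ES cells and is lost as they differentiate. It is no gene product of its own, so no array feature checks that sort. Among the kinds of genes named below, spliceosome and hnRNP proteins process pre-mRNA, tubulins and centrosome proteins build the mitotic spindle, and proteins of the secretory and endosomal route carry cargo between membranes. Tdgf1 (Cripto), a co-receptor for Nodal, has a known place in early lineage signalling.

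The labels were set against marker genes that could be named. The 7 of 20 pluripotency markers named here averaged 1.44 and 1.46 in V-S+ (clones 5.1 and 16.1), 1.25 and 0.87 in V+S+, 1.36 and 1.43 in V-S-, and 0.70 and 0.49 in V+S-. That average includes Tdgf1, which is a member, and Pou5f1, which met the rule, and both were thus picked for low values in V+S-. The 5 others averaged 1.32 and 1.40 in V-S+, 0.97 and 0.54 in V+S+, 1.31 and 1.35 in V-S-, and 0.59 and 0.38 in V+S-. The 8 of 23 primitive endoderm markers averaged -1.59 and -1.41 in V-S+, -1.24 and -0.83 in V+S+, -1.60 and -1.55 in V-S-, and -0.41 and -0.36 in V+S-. Fibroblast markers (Col1a2 and Vim, 2 of 5 named) were between -4.76 and -4.41 in the V- fractions, -4.40 and -3.74 in V+S+, and -2.95 and -2.17 in V+S-. The 3 of 6 trophectoderm markers were between -0.95 and -0.50 in the V- fractions, -0.08 and 0.22 in V+S+, and 0.58 and 0.57 in V+S-, so that they stood higher in V+S+ already. The epiblast markers Fgf5 and Pou3f1 (2 of 7 named) averaged -0.17 and 0.13 in V-S+, 0.93 and 1.73 in V+S+, 0.07 and 0.51 in V-S-, and 0.97 and 1.55 in V+S-, and both were called higher in V+S- when set against V-S+ (limma, adjusted p of 0.0497 and 0.0377). The neuroectoderm marker Hes5 (1 of 6) was called lower in the same comparison, by a log2 difference of -0.81 (limma, adjusted p of 0.0398), and the mesoderm marker Gsc (1 of 6) was not called (-0.44). These marker genes were named from the study's own selection on these samples, and the part of any other cell type or state in the values of V+S+ and V+S- was not tested. In sorted bulk RNA, fewer cells that make a transcript and less of it per cell cannot be told apart.

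Probe sequences are shown for some of the genes that the results return to, since the array's features are defined by their 60-base sequences and the files give no gene names. Bases 16 to 45 of the probes for Prpf19, Raly, Rbbp4, Tmed9, Spon1 and Tdgf1 read, 5′ to 3′:
Prpf19: tgtccagatctacatctgcaaacaatggac
Raly: caggacattcccaggcttggggtttttcta
Rbbp4: accatccagtgatgttcttgtttttgacta
Tmed9: ttccacatcggagaaacagaaaagaagtgc
Spon1: ctcattagcaggttttactcatgcatctgt
Tdgf1: ctcaaaacactaactaggcctttcctctgc
In RefSeq (GRCm38.p6) these genes lie at chr19:10895231-10909559 (Prpf19), chr2:154790920-154871010 (Raly), chr4:129307100-129335370 (Rbbp4), chr13:55593135-55597697 (Tmed9), chr7:113765998-114043375 (Spon1) and chr9:110939608-110946158 (Tdgf1). Where in its transcript each probe lies was not determined here. The median GC content of the 60-base probes was 45% in the 215 features and 45% in all features tested.

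Promoters are shown for 3 members that were also low in V-S- cells of clone 5.1 (Prpf19, Rbbp4 and Tmed9) and for Tdgf1, which was not. Each is the 250 bases before the start of the gene in RefSeq (GRCm38.p6), at chr19:10894981-10895230 on the plus strand for Prpf19, chr4:129335371-129335620 on the minus strand for Rbbp4, chr13:55592885-55593134 on the plus strand for Tmed9 and chr9:110946159-110946408 on the minus strand for Tdgf1. Capitals mark matches, on either strand, to the CCAAT box, the GC box GGGCGG, the E box CACGTG and the ETS-type motif CCGGAAG.
Prpf19: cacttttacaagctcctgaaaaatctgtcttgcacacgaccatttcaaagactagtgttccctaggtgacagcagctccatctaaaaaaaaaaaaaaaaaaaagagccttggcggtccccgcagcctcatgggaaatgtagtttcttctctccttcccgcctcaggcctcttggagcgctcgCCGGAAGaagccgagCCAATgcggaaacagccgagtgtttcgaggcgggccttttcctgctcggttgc
Rbbp4: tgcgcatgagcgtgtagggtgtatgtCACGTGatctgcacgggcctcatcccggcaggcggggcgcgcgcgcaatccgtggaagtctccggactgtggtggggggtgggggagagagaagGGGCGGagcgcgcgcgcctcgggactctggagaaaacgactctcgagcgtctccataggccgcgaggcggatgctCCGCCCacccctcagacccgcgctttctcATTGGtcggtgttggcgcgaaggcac
Tmed9: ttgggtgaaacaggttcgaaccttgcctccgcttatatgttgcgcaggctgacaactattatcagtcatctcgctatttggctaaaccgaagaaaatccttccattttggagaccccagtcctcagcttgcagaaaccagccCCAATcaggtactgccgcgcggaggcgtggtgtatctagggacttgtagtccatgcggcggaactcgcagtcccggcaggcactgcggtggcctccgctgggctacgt
Tdgf1: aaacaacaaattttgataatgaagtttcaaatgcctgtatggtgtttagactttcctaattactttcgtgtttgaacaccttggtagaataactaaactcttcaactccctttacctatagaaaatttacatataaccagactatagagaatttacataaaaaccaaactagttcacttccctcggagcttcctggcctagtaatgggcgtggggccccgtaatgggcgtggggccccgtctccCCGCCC
Prpf19 holds CCGGAAG next to CCAAT, Tmed9 holds CCAAT alone, Rbbp4 holds CACGTG with GGGCGG on each strand and a CCAAT box on the strand opposite to the gene, and Tdgf1 holds GGGCGG alone. Over the 34 named genes with an entry in the RefSeq table, 50 promoters of 300 bases in all, CCAAT was found in 46% (37.4% of all 32851 promoters), GGGCGG in 58% (35.7%), CACGTG in 12% (7.15%), CCGGAAG in 18% (8.86%) and the NRF1 palindrome in 2.0% (0.971%). These shares are a description of letters in a window, several promoters belong to the same gene, and no binding was measured.

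The 215 features did not all follow the same course. In the deposited values 111 were level in V+S+ (within 0.10 of V-S+ in both clones), 50 were higher in V+S+ by 0.13 or more in both clones, and 54 lay between. All 111 level features lay below V-S+ in V+S- in both clones. Of the 50 that were higher in V+S+, 8 lay below V-S+ in V+S- in both clones. For most of these 50, V+S- was thus below V+S+ but not below V-S+ in both clones. Among the in-between features 39 of 54 lay below V-S+ in both clones. The shapes follow from the values that chose the features and are not tested.

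**Figure D1:**
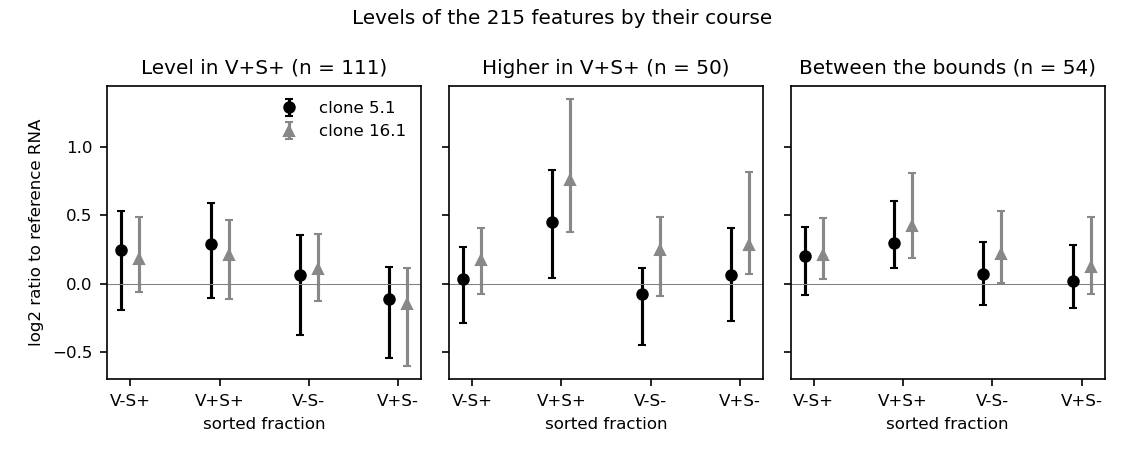
Median log2 ratio to the reference (points) and interquartile range over features (bars) in each fraction and clone, for the 111 features level in V+S+, the 50 higher in V+S+ and the 54 between. The level group goes from 0.24 and 0.18 in V-S+ to -0.11 and -0.15 in V+S- (clones 5.1 and 16.1), and the second group peaks in V+S+ at 0.45 and 0.76.

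In log2 values rebuilt from the scanner files the median of V+S- minus V+S+ over the 215 features was -0.38 in clone 5.1 and -0.40 in clone 16.1, against 0.03 and 0.01 over all 29483 features tested, and 211 of 215 were lower in both clones. This contrast chose the features. In limma no feature of the array was called at an FDR of 0.05 and more than 1.5-fold (lower calls 0% of all tested); at an unadjusted p below 0.05, 124 of 215 were lower beside 5.53% of all tested, and with clone as a block 37 were called lower beside 0.353%. Nothing is read from these counts. The 49 named members were bright and kept their size in the rebuilt values (median -0.67, against -0.77 in the deposited values on the log2 scale). The 166 unnamed members were dim, with a median Cy3 log2 signal of 7.04 against 10.26 for the named and 9.42 for the table's features above background, and their median was -0.34 rebuilt against -0.61 deposited. With the thresholds converted to log2, 41 of 49 named members and 23 of 166 unnamed members met the rule in the rebuilt values.

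**Figure D2:**
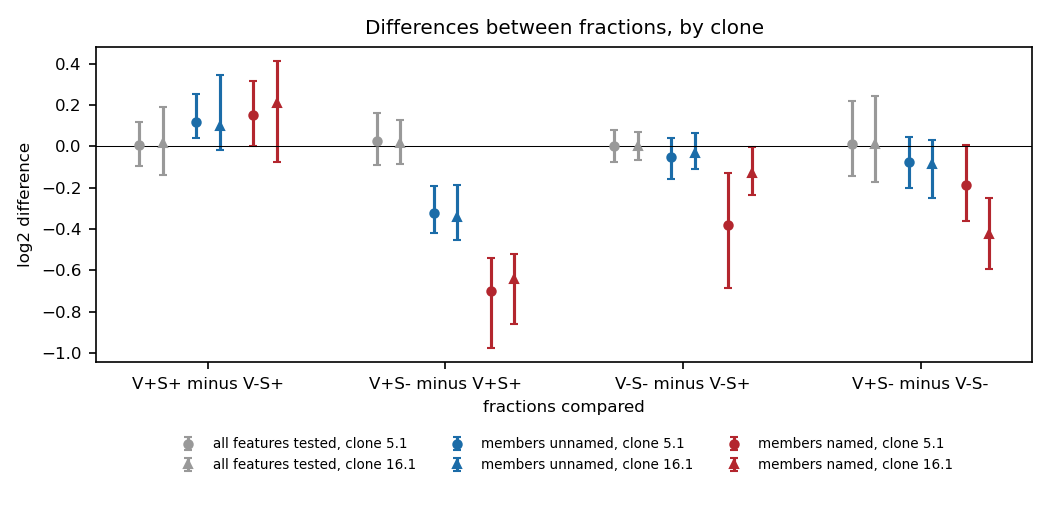
Median (points) and interquartile range (bars) of log2 differences between fractions in each clone, for all 29483 features tested, the 166 unnamed and the 49 named members. The first and second pairs of fractions chose the members; V-S- minus V-S+ is the pair that the rule did not compare, with medians of -0.38 and -0.13 for the named members in clones 5.1 and 16.1.

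The 7 members of the splicing and hnRNP list are described first. Prpf19, the ubiquitin ligase core of a spliceosome-activating complex, was at 0.43 and 0.20 in V-S+ (clones 5.1 and 16.1), 0.76 and 0.57 in V+S+, -1.21 and 0.24 in V-S-, and -1.22 and -1.14 in V+S-. Both V+S- samples lay below all others except the V-S- sample of clone 5.1, which sat at their level. Raly, an hnRNP family protein, was at 0.34 and 0.28 in V-S+, 0.95 and 0.98 in V+S+, -0.88 and -0.04 in V-S-, and -0.88 and -0.68 in V+S-. Raly was thus highest in V+S+ in both clones and low in V+S-.

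Taf15, an RNA-binding protein, was at 0.81 and 0.62 in V-S+, 0.98 and 0.89 in V+S+, 0.26 and 0.51 in V-S-, and 0.02 and 0.09 in V+S-. Hnrpul2 (Hnrnpul2 in RefSeq) was at 0.36 and 0.18 in V-S+, 0.51 and 0.45 in V+S+, -0.52 and 0.18 in V-S-, and -0.52 and -0.49 in V+S-. Both genes had their lowest clone 16.1 value in V+S- and differed between the clones in V-S-. Sart3, a recycling factor for the U4/U6 snRNP, was at 0.05 and -0.02 in V-S+, 0.00 and -0.28 in V+S+, -0.21 and -0.29 in V-S-, and -0.54 and -1.08 in V+S-. Wbp11, a splicing-associated protein, was at 0.32 and 0.37 in V-S+, 0.36 and 0.12 in V+S+, 0.40 and 0.13 in V-S-, and -0.08 and -0.28 in V+S-. For both, the V+S- samples were the lowest of the 8, by 0.25 for Sart3 and 0.20 for Wbp11.

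Tnrc4 (Celf3 in RefSeq), an RNA-binding splicing regulator best known from neurons, was at 0.44 and 0.41 in V-S+, 0.76 and 0.81 in V+S+, 0.30 and 0.65 in V-S-, and 0.29 and 0.26 in V+S-. It was highest in V+S+ in both clones, and the V-S- sample of clone 16.1 lay nearer to V+S+ than to V-S+. Of 54 symbols of the splicing and hnRNP list 9 could be named, 7 of them members. The other 2 were Cdc5l (V+S- minus V+S+ of -0.16) and U2af1 (-0.43). Neither was called between V+S- and V+S+, with or without clone as a block. With the block U2af1 had an adjusted p of 0.0288 (limma) and missed the call only by the 1.5-fold bound. The member Wbp11 missed it in the same way (-0.42, adjusted p of 0.0312 in limma).

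Rbbp4, a histone-binding subunit shared by NuRD, PRC2 and CAF-1, was at 0.61 and 0.46 in V-S+, 0.61 and 0.51 in V+S+, -0.45 and 0.17 in V-S-, and -0.81 and -1.14 in V+S-. It was level with V-S+ in V+S+ in both clones and lowest in V+S- in both. Of 18 symbols of its complexes 4 could be named. The other 3 did not meet the rule. Suz12, a core PRC2 subunit, was at a V+S- minus V+S+ of -0.04, Chaf1b, a CAF-1 subunit, at -0.38 and Mbd2, a methyl-CpG-binding protein, at 0.39. Atxn7l3, a subunit of the SAGA deubiquitinating module, was at 0.49 and 0.49 in V-S+, 0.74 and 0.35 in V+S+, 0.06 and 0.19 in V-S-, and -0.45 and -0.51 in V+S-. Msl2l1 (Msl2), a ubiquitin ligase of the MSL histone acetyltransferase complex, was at 0.38 and 0.28 in V-S+, 0.46 and 0.31 in V+S+, -0.43 and 0.10 in V-S-, and -0.52 and -0.46 in V+S-. Both were lowest in V+S- in each clone, by a wide margin for Atxn7l3 and, in clone 5.1, by a small margin for Msl2l1.

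Max, the dimerisation partner of Myc, was at 0.47 and 0.27 in V-S+, 0.61 and 0.39 in V+S+, -0.31 and 0.24 in V-S-, and -0.21 and -0.29 in V+S-. The network's other named genes did not meet the rule, with Mycn at a V+S- minus V+S+ of -0.40 and Mxd4, a Max-binding repressor, at 0.82. Eif4g1, the scaffold of the cap-binding complex, was at 0.51 and 0.47 in V-S+, 0.55 and 0.21 in V+S+, 0.22 and 0.11 in V-S-, and -0.12 and -0.42 in V+S-. Lmnb1, which encodes the nuclear lamina protein lamin B1, was at 0.65 and 0.68 in V-S+, 0.61 and 0.73 in V+S+, 0.32 and 0.58 in V-S-, and 0.09 and 0.23 in V+S-. Eif4g1 and Lmnb1 had both V+S- samples below all 6 others.

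Tdgf1 was at 1.52 and 1.69 in V-S+, 1.67 and 1.67 in V+S+, 1.55 and 1.70 in V-S-, and 0.97 and 1.02 in V+S-. The 6 samples outside V+S- spanned 0.18 on the log2 scale and the higher V+S- sample lay 0.50 below the lowest of them. Other named genes of the Nodal and Cripto list did not meet the rule. Cfc1 (Cryptic), a related co-receptor, was at a V+S- minus V+S+ of -0.19. Furin, a convertase that processes Nodal, was at 0.77 and Smad3, a signal transducer, at 0.80. LOC668932, described in the naming table as similar to a DNA methyltransferase 3B isoform, was at 0.69 and 0.62 in V-S+, 0.89 and 0.87 in V+S+, 0.85 and 0.78 in V-S-, and 0.21 and 0.24 in V+S-. Its probe may also bind Dnmt3b transcripts, which was not tested.

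Spon1 (spondin 1, an extracellular matrix protein) was at 0.20 and 0.42 in V-S+, 1.51 and 1.85 in V+S+, 0.04 and 0.49 in V-S-, and 0.58 and 1.00 in V+S-. Aadac, an esterase of the endoplasmic reticulum, followed with 0.21 and 0.56 in V-S+, 1.13 and 1.70 in V+S+, 0.11 and 0.59 in V-S-, and 0.72 and 0.83 in V+S-. Both genes peaked in V+S+ and were above V-S+ in V+S- in both clones. A description by the lower value in V+S- alone leaves out their higher level in V+S+.

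Tubulin and spindle genes made up 4 members of the 7 that could be named from a list of 15. Tubb2b, a beta tubulin, was at 1.24 and 1.27 in V-S+, 1.25 and 1.06 in V+S+, 0.59 and 1.13 in V-S-, and 0.71 and 0.54 in V+S-. Cdk5rap2, a centrosomal protein that anchors microtubule nucleation, was at 0.38 and 0.31 in V-S+, 0.43 and 0.29 in V+S+, 0.12 and 0.08 in V-S-, and -0.12 and -0.33 in V+S-. In both clones Cdk5rap2 was lowest in V+S-, with V-S- between it and the SSEA-1-positive fractions. Mtap7d2 (Map7d2), a microtubule-associated protein, was at 0.94 and 1.28 in V-S+, 1.03 and 1.06 in V+S+, 0.91 and 1.13 in V-S-, and 0.48 and 0.53 in V+S-. Kifc5c, a kinesin copy that RefSeq now lists as a pseudogene, was at 0.56 and 0.62 in V-S+, 0.84 and 0.60 in V+S+, 0.38 and 0.62 in V-S-, and 0.19 and 0.09 in V+S-. Its probe may bind transcripts of near-identical kinesin genes, so its identity is uncertain. The other three were Pcnt (V+S- minus V+S+ of -0.11), Tubb3 (-0.14) and Tubb6 (0.38). Gene 6230416J20Rik (Haus6 in RefSeq), a subunit of the augmin complex that nucleates spindle microtubules, was at 0.37 and 0.17 in V-S+, 0.79 and 0.82 in V+S+, -0.63 and 0.01 in V-S-, and -0.62 and -0.61 in V+S-.

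Members of the secretory and endosomal route included Tmed9, a cargo receptor of early secretory vesicles, at 0.57 and 0.29 in V-S+, 0.47 and 0.67 in V+S+, -0.68 and 0.07 in V-S-, and -0.31 and -0.23 in V+S-. In clone 5.1 its lowest sample was V-S-, not V+S-. Psap, the precursor of the lysosomal saposins, was at -0.80 and -1.16 in V-S+, -0.59 and -0.60 in V+S+, -1.64 and -1.27 in V-S-, and -1.81 and -1.59 in V+S-. Rab5c, an early endosome GTPase, was at -0.26 and -0.37 in V-S+, 0.10 and 0.22 in V+S+, -0.73 and -0.50 in V-S-, and -0.76 and -0.56 in V+S-. Both had V-S- values between V-S+ and V+S- in each clone. Arl6ip5, an endoplasmic reticulum protein that regulates glutamate transport, was at 0.42 and -0.08 in V-S+, 1.02 and 1.10 in V+S+, -0.27 and -0.09 in V-S-, and 0.47 and 0.57 in V+S-. It was one of the genes that peaked in V+S+ and remained above V-S+. Gclm, the modifier subunit of glutamate-cysteine ligase in glutathione synthesis, was at 0.03 and 0.08 in V-S+, 0.03 and 0.01 in V+S+, 0.00 and 0.00 in V-S-, and -0.41 and -0.42 in V+S-. The 6 other samples of Gclm lay within 0.08 of each other.

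The other named members with large values in the deposited table were BC017612 (V+S- minus V+S+ of -1.36 in the rebuilt values), which has no match in RefSeq, and Stk32c (-1.13), a serine/threonine kinase. BC017612 was at -1.01 and -1.08 in V-S+, -0.17 and -0.35 in V+S+, -1.44 and -1.35 in V-S-, and -1.65 and -1.59 in V+S-. Cdk5r2, an activator of Cdk5, was at -0.34 and -0.18 in V-S+, -0.07 and -0.14 in V+S+, -0.03 and 0.00 in V-S-, and -1.06 and -0.55 in V+S-. Ppif, mitochondrial cyclophilin, was at 0.92 and 1.07 in V-S+, 0.86 and 0.88 in V+S+, 1.01 and 1.10 in V-S-, and 0.27 and 0.48 in V+S-. Cdk5r2 and Ppif were low in V+S- alone. Ankrd24, an ankyrin-repeat protein, was at 0.50 and 0.18 in V-S+, 0.42 and -0.10 in V+S+, -0.19 and -0.12 in V-S-, and -0.51 and -1.05 in V+S-. A further 15 named members were EG624086, Ube2k, Mpst, Snf1lk2, Ptchd1, LOC382603, EG545808, Cdv3, Mtss1, Bat2d, Kcnh8, Anp32b, Arl15, Aim2 and Bag4, with V+S- minus V+S+ from -1.06 (EG624086) to -0.17 (Kcnh8). EG545808 corresponds to a ribosomal protein pseudogene in RefSeq (Rps2-ps5), so its probe may bind transcripts of the parent gene. Over all 49 named members V+S- minus V+S+ ranged from -1.85 to -0.17 as the mean of both clones.

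The 12 lists of related genes hold 186 symbols. Of these 41 could be named, 24 as members and 17 as others. Among the other genes 5 were called lower and 7 higher in V+S- when set against V-S+ (limma, FDR of 0.05, more than 1.5-fold). Over all 29483 features these calls numbered 377 and 1688. The 17 could be named only because the study had selected them on these samples, so calls among them partly come with that choice. Between V+S- and V+S+ with clone as a block none was called lower, beside 0.353% of all features, and 3 were called higher (Furin, Smad3 and Mxd4). Only the 1.5-fold bound kept U2af1, Chaf1b and Uhrf1 from a lower call, and Mbd2, Tubb6 and Sos2 from a higher one. Uhrf1, which recruits the maintenance DNA methyltransferase, was the only named gene of the 7 DNA methylation symbols, at a V+S- minus V+S+ of -0.35. Unc84b, a nuclear envelope protein, was at 0.41 and Gss, the glutathione synthetase, at 0.03. Members were chosen by this difference and the other list genes had not met the rule. A larger fall in members therefore comes with the choice in every list, and nothing is read from it.

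**Figure D3:**
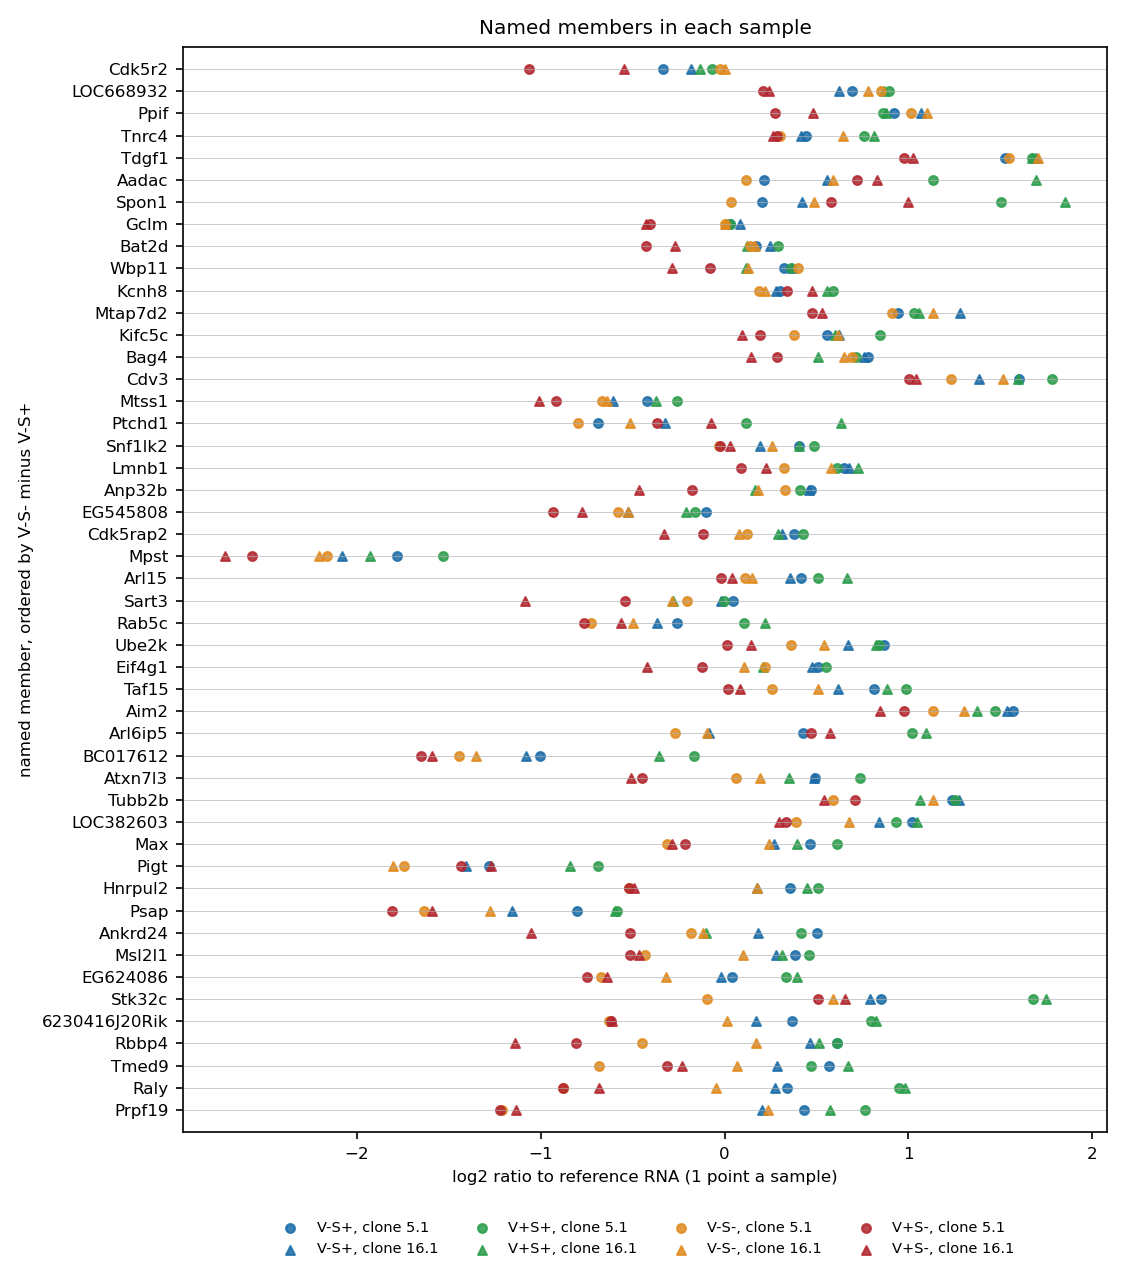
Log2 ratio to the reference of 48 of the 49 named members in each of the 8 samples (circles, clone 5.1; triangles, clone 16.1; colours, fractions), ordered by V-S- minus V-S+. For genes at the foot of the plot such as Prpf19 and Raly the V-S- sample of clone 5.1 lies with the V+S- samples, and for genes at the top such as Tdgf1 both V-S- samples lie with V-S+.

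The rule did not use the V-S- fraction, cells without Venus and without SSEA-1. It therefore gives the question of whether the same features were lower in SSEA-1-negative cells without Venus. The limit is that the V-S+ arrays also enter the rule, both as a level and as a filter on dim features. The median of V-S- minus V-S+ over the 215 features was -0.10 in clone 5.1 and -0.04 in clone 16.1, against 0.00 and 0.00 over all features tested, and the fitted median was -0.08. With a sample left out the fitted median lay between -0.1281 (without V-S- of clone 16.1) and -0.0284 (without V-S+ of clone 16.1). In both clones 112 of 215 (52.1%) were lower and 33 (15.3%) higher, against 34.1% and 35.0% of all features tested. Over the 17398 features of the deposited table that met the same background condition in V-S+ and were tested, the shares were 36.3% and 34.7%. No member and no other feature was called in limma with Benjamini-Hochberg adjustment (0% of 29483). At an unadjusted p below 0.05, 23 members (10.7%) were lower and 1 higher, beside 1.16% and 1.67% of all features (834 features in all) and 1.12% and 1.68% of those that met the background condition. With clone as a block 40 members were lower at that level, beside 4.08%, and still none was called. Median centring in place of loess moved the median of all features to -0.12 and that of the members to -0.14, so relative to all features the lower median was almost gone, whereas the deposited values gave -0.14 for the members against 0.00. Leaving out the V-S+ or the V-S- sample of clone 5.1 left 7 members lower at an unadjusted p below 0.05, and over all features the number past that level in either direction fell from 834 to 435 and 340.

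Values below 0 for V-S- minus V-S+ were found for 155 of 215 features (72.1%) in clone 5.1 and 139 (64.7%) in clone 16.1, beside 49.6% and 49.5% of all features tested, and among the 111 level features for 82 and 88 (73.9% and 79.3%), with medians of -0.12 and -0.08. The large differences lay in clone 5.1. In that clone 57 of 29483 features had V-S- more than 1.5-fold below V-S+, and 18 of these were members, 15 of them named. In clone 16.1, 29 features were past that size and none was a member. The 15 named genes were Prpf19, 6230416J20Rik, Raly, Rbbp4, Stk32c, EG624086, Psap, Hnrpul2, Msl2l1, Ankrd24, Tmed9, LOC382603, Max, Tubb2b and Arl6ip5. They were picked by that size in clone 5.1, so the values that follow are a description and the lower level in this clone comes with the choice. For V-S- minus V-S+ their median was -0.83 (clone 5.1) and -0.16 (clone 16.1). In clone 5.1 their V-S- level was close to that of V+S- (median V+S- minus V-S- of 0.00, from -0.36 to 0.74), and in clone 16.1 V+S- lay below V-S- by a median of -0.56. All 4 samples of a clone share a slide and each clone has a single V-S- sample, so this difference between clones was not tested, and slide cannot be told apart from clone. For clone 5.1 the V-S- sample had the lowest ratio of signal to background of the 8 (2.36, the others between 2.55 and 2.87), whose part in these values was not tested.

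The lowest fitted values among named members were those of Prpf19 (log2 difference of -0.80 ± 0.42 SE), Raly (-0.77 ± 0.25) and Tmed9 (-0.74 ± 0.24), and the highest were Cdk5r2 (0.25 ± 0.16), LOC668932 (0.16 ± 0.06) and Ppif (0.06 ± 0.09), each with an adjusted p of 1 in limma. These SEs are from the fit without clone. With clone as a block their adjusted p lay between 0.516 (Raly) and 0.8 (Ppif) in limma. With the clone 5.1 sample of V-S- left out, Prpf19 was at -0.08, Raly at -0.35 and Tmed9 at -0.36, and with the clone 16.1 sample left out they were -1.53, -1.18 and -1.11. Pigt, a subunit of the GPI transamidase that attaches membrane anchors, differed by -0.46 in clone 5.1 and -0.40 in clone 16.1. It was at -1.28 and -1.40 in V-S+, -0.69 and -0.84 in V+S+, -1.74 and -1.81 in V-S-, and -1.44 and -1.27 in V+S-, so its lowest samples were those of V-S-. Tdgf1 differed by 0.02 ± 0.09 between V-S- and V-S+, and Gclm by -0.06 ± 0.06. Of the 49 named members 38 were lower in V-S- in both clones and 4 were higher in both, a count that is not independent because the naming table was selected on all 4 fractions.

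**Figure D4:**
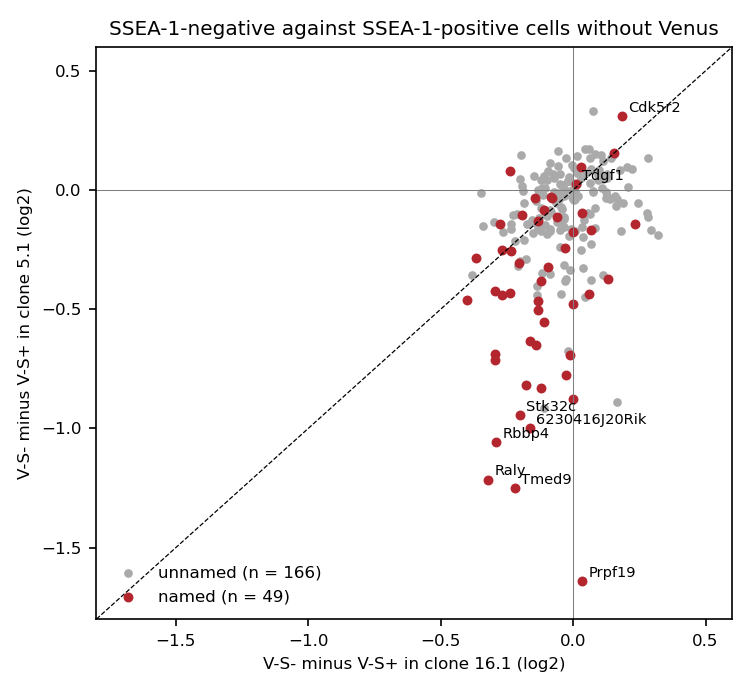
V-S- minus V-S+ (log2) of each of the 215 features in clone 16.1 (horizontal) and clone 5.1 (vertical), with named members in red; the dashed line marks equal values. Prpf19 lies at 0.04 and -1.64, and the lowest member in clone 16.1 lies at -0.40.

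Set against V-S- cells, V+S- was lower by 0.11 at the median of the 215 features (fitted difference of -0.11). In limma 6 members were called lower and 1 higher, beside 1.49% and 6.3% of all features. The 6 were Rbbp4, Cdk5r2, Atxn7l3, LOC668932, Tdgf1 and Ppif, and the 1 higher was Arl6ip5. Against V-S+, 19 members were called lower beside 1.28%. These counts are from the fit without clone. With clone as a block Prpf19, Hnrpul2 and Tmed9, for example, were also called lower against V-S+ (adjusted p of 0.0187, 0.0181 and 0.0334 in limma). The low level of V+S- was part of the rule, so these counts are a description. The 6 lower calls became 0 when a V-S- sample or the clone 16.1 sample of V+S- was left out, 3 when a V-S+ sample or the clone 5.1 sample of V+S- was left out, and 24 with the deposited values.

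The higher level of some members in V+S+ was likewise part of what the rule allowed. For V+S+ minus V-S+ the members' median was 0.12 (clone 5.1) and 0.13 (clone 16.1), and with clone as a block 28 members were called higher beside 3.87% of all features. Without the block limma called none, and 5514 of 29483 features had an unadjusted p below 0.05. The epiblast markers Fgf5 and Pou3f1 likewise had higher array values in V+S+, against V-S+, in each clone, and their part in these values was not tested. By quantitative PCR on sorted SSEA-1-positive cells, with Fgf5 among the genes, the paper reported that epiblast markers were not enriched in V+S+. The reason for this difference was not tested.

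The rule set no bound on the level of 1 clone against the other, but it used 6 of the 8 samples in this fit, and asking for the same bounds in both clones limits the spread that the fit leaves over. The counts between clones are therefore a description, and nothing is read from their excess over all features. The samples of clone 5.1 lay on 1 slide and those of clone 16.1 on another, so a difference between clones cannot be told apart from one between slides. With fraction in the model, limma called 18 of the 215 features (8.37%) higher in clone 16.1 and none lower, beside 1.39% and 0.746% of all features. All 18 are unnamed, and all 18 were higher in clone 16.1 in each of the 4 fractions. Of these, 13 belong to the features that were higher in V+S+, 4 to the in-between group and 1 to the level group. Their log2 differences ranged from 0.59 to 0.99 with adjusted p between 0.0014 and 0.0062 (limma). The number was 37 with the deposited values and 0 without the fraction term. The largest, Z00030069-1, was at 0.91 and 1.76 in V-S+, 1.74 and 2.94 in V+S+, 0.88 and 1.92 in V-S-, and 1.33 and 2.19 in V+S- (difference of 0.99 ± 0.07 SE). Z00036910-1 was at 0.78 and 1.23 in V-S+, 2.24 and 3.10 in V+S+, 0.66 and 1.51 in V-S-, and 1.85 and 2.50 in V+S-. Both features were highest in V+S+ and next highest in V+S- in each clone, whereas V-S- lay below V-S+ in clone 5.1 and above it in clone 16.1. No named member was past 1.5-fold between clones, and their differences ranged from -0.33 (Ankrd24) to 0.37 (Aadac).

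At the limits of the rule the values ran on without a gap. Wbp11 (-0.1305 in its limiting clone, log10 scale) and Z00048704-1 (-0.13) were just inside the bound on the fall, and Z00071789-1 (-0.1299) and Z00051655-1 (-0.1297) just outside. Ankrd24 (-0.0995) and Z00041723-1 (-0.0964) were just inside the bound on V+S+ minus V-S+, and Z00023724-1 (-0.1001) and Myst3 (-0.1003), which encodes a histone acetyltransferase, just outside. With a fall of 0.16 or more 125 features remained, and with 0.10 or more there were 457. All 215 features passed the filter of the fit, and 200 were well above background in all 8 samples.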

How the data were processed

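RNA from 8 sorted samples (4 fractions of 2 clones) was hybridised to two-colour 44K arrays. The authors deposited 16 scanner files with the intensity of each of 43451 spots in both channels (Agilent Feature Extraction, per the submitters' processing notes), 2 repeat scans per sample, and a table of log10 values for 25164 features. The array design number in the headers of these files differs from that in the methods. The members and lists were chosen with earlier results of these data known, and alternatives were planned in the same knowledge.

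The rule was applied to the deposited log10 table; names came from the study's list of clustered genes, through the probe identifier. Fits started from intensities: normexp (offset of 50), loess within each scan with control spots at weight 0, outlier spots missing, and the mean of the 2 scans as 1 replicate, given as log2 of Cy3 over Cy5. The 29483 of 42006 features whose Cy3 signal was flagged well above background in every file of a fraction, for 1 fraction or more, were fitted with limma 3.58.1 in R 4.3.3 with fraction as the term (lmFit, eBayes, Benjamini-Hochberg), and called at an FDR of 0.05 and more than 1.5-fold. The clone number pairs the samples, each clone being a cell line that gave all fractions; clone deviations correlated across features between fractions with r between 0.59 and 0.81, so clone as a block was run beside it. Clones were compared with fraction in the model. With 2 clones per fraction, p-values measure the spread between these samples, and the number of arrays limits precision. No spot was saturated, and repeat scans differed by an SD of 0.06 to 0.08. The fit was tested on simulated data.

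Given with the value in every sample were named members in a gene list, those with the 6 largest falls, the 3 highest and 3 lowest in V-S- against V-S+, and those beside a threshold; unnamed features and the rest are given by range and count, with examples. Of 49 symbols 45 matched RefSeq, 9 through an older symbol. The values of 1 of the 49 are not reported here.

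The alternatives were other background corrections and normalizations, the filter on dim features, single scans, the deposited values, fits of 2 fractions, other rule bounds, and each sample left out in turn. Counts at an unadjusted p, the shares over features that met the background condition and the marker mean without genes that met the rule were added after seeing the data.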

Additional observations from a re-analysis of the deposited data

Results flagged for a closer look

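Prpf19 had values in the V-S- fraction that went apart between the clones. V-S- minus V-S+ was -1.64 on the log2 scale in clone 5.1 and 0.0351 in clone 16.1, with 1 sample per fraction and clone, so that the difference between clones was not tested. It was the only named member past 1.5-fold in 1 clone with the opposite sign in the other.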

How the results depend on the processing

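Of 255 values recomputed under the alternatives, 218 kept their direction and their side of the test's threshold (a count within 1.5 times, the median within the spread between clones), 32 moved and 5 changed sign. Keeping the direction did not mean keeping the size: Prpf19 lay between -1.5267 and -0.0801, Raly between -1.1839 and -0.3528 and Tmed9 between -1.1107 and -0.3611 with a sample left out. The number of features meeting the rule was 215; it was 125 with a fall of 0.16 or more, 457 with 0.10 or more, 505 without the background condition and 71 with log2 values rebuilt by loess, 64 of them among the 215. Asked of a single clone, it was 638 (clone 16.1) and 920 (clone 5.1). Between V-S- and V-S+ 1 feature of the whole array, no member, was called with the scanner software's signals and with the deposited values, and between 0 and 1 with a sample left out. The members lower at an unadjusted p below 0.05 were 23, 61 with median centring (where 4447 of all 29483 features passed in either direction, against 834, and the median of all features was -0.12), 40 with clone as a replicate block (2473 of all features), and between 7 and 32 with a sample left out. Their median was -0.0774, -0.1363 with the scanner software's signals, -0.1384 with median centring, -0.1364 with the deposited values and between -0.1281 and -0.0284 with a sample left out. Ppif became -0.1276 with median centring and lay between -0.0132 and 0.1382 with a sample left out; LOC668932 became -0.0418 with median centring and -0.1074 with the Cy3 channel alone, and Cdk5r2 -0.0206 with the Cy3 channel alone. Members called lower in V+S- than in V+S+ were 37 with the replicate block and 0 otherwise. Against V-S-, 6 became 24 with the scanner software's signals and with the deposited values, 1 with median centring and between 0 and 5 with a sample left out. Between clones 18 became 37 with the scanner software's signals and with the deposited values, 0 without the fraction term and between 15 and 19 with a sample left out. The causes were not tested. With the block V+S+ against V-S+ gave 28 members called higher, and 0 without it, and the 6 called lower against V-S- became 9. Dim unnamed features, at a median Cy3 log2 signal of 7.04, limit the depth of the list.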
